A study of Mus musculus with 30 samples.

Results

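The nuclear-encoded subunits of respiratory complex I were described across 30 soleus muscle libraries from mice. Members were taken by name, as Nduf followed by a, b, c, s or v and a number, which leaves out the assembly factors (Ndufaf genes). Of 56980 genes in the deposited table of raw counts, 36 carried such a name, and all 36 reached the required 10 counts in at least 7 libraries, each doing so in 30 of 30. The rule used names and a low count minimum only, and no group difference entered it. One accessory subunit was listed only as the pseudogene-style symbol Ndufb1-ps, and the acyl carrier subunit Ndufab1 does not match the name pattern, so neither was a member.

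Every mouse was C57BL/6J, 3 to 4 months old, and carried floxed alleles of AMPKalpha1 and AMPKalpha2, the catalytic subunits of the energy-sensing kinase AMPK. The 4 groups were controls without Cre that walked freely for 4 weeks (AMB Ctrl, n = 8), muscle-specific double knockouts kept the same way (AMB mKO, n = 7), controls whose hindlimbs were unloaded for 4 weeks (HU Ctrl, n = 7), and unloaded double knockouts (HU mKO, n = 8). The promoter that drives Cre is not given in the labels, and because controls carried no Cre, loss of AMPK and presence of Cre cannot be told apart. Both sexes were used, with 5 females and 3 males, 2 and 5, 3 and 4, and 5 and 3 in those groups. The treatment text attached to every sample describes metformin in people, and the extraction text describes myotubes, so neither was taken as a description of these mice. In whole muscle, fewer cells of one type and less RNA per cell cannot be told apart.

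Complex I takes electrons from NADH, passes them through a flavin and a chain of iron-sulphur clusters to ubiquinone, and pumps protons across the inner mitochondrial membrane. Its N module oxidises NADH, its Q module reduces ubiquinone, and the proximal and distal parts of the membrane arm hold the proton pumps. The catalytic core is conserved from bacteria and is divided between nuclear genes and the mitochondrial genome, while the remaining accessory subunits surround it and stabilise it. Slow, oxidative fibres such as those of the soleus, a postural muscle that works against gravity, are rich in mitochondria.

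Libraries held 12083415 to 20895263 counts, and values below are CPM, counts scaled to a common library size with edgeR's composition factors, unless another unit is named. Prkaa2, which encodes the main catalytic AMPK subunit of muscle fibres, averaged 213 ± 28.3 CPM (SD, n = 8) in AMB Ctrl, 60.3 ± 26.3 in AMB mKO (n = 7), 254 ± 73.2 in HU Ctrl (n = 7) and 80.1 ± 18.5 in HU mKO (n = 8). Its lowest control library, at 129.9 CPM, was above its highest knockout library, at 111.6 CPM. Prkaa1, the other catalytic subunit, averaged 20.99, 17.2, 25.3 and 17.5 CPM in the same order and was not called between genotypes in either condition. All 8 skeletal muscle markers checked, among them Acta1, Ckm and Ttn, were present in all 30 libraries. One library stood apart before any comparison. AMB mKO replicate 2, titled 32c, held 116 CPM of Myh7, the slow myosin heavy chain, against 6891 to 16580 in the other 6 AMB mKO libraries, and 903 CPM of the adipocyte gene Adipoq against 2.92 to 142. Its 8 adipocyte markers summed to 11540 CPM, against 932 to 3490 in the rest of its group, and its 8 skeletal muscle markers to 9928 CPM against 182000 to 282100. Of 3 brown adipocyte markers, Ucp1 was at 0 in all 30 libraries, while Cidea (13 to 81 counts) and Cox8b (447 to 7790 counts) were detected in every one. Cidea and Cox8b together summed to 20.8 CPM in AMB mKO replicate 2, against 198 to 332 in the rest of its group. They were thus low where the 8 adipocyte markers were high. For each comparison below, the count and median over the 36 subunits are given with and without that library.

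Complex I transcripts averaged lower after unloading in both genotypes. In the fit of all 30 libraries the difference passed the test for 7 of 36 subunits in controls and for none in the knockouts. Over all genes, 5.74% and 4.75% were called lower. Without AMB mKO replicate 2 the counts were 14 and 10, beside 7.86% and 6.82% of all genes. No subunit was called for a difference in response between genotypes in either fit. The 36 subunits together summed to 5217 ± 957 CPM in AMB Ctrl (lowest 4030, median 5039, highest 6761) and to 3859 ± 613 CPM in HU Ctrl (3290, 3766 and 5060). In the knockouts they summed to 4548 ± 1496 CPM in AMB mKO (1531, 5322 and 5604) and to 3514 ± 750 CPM in HU mKO (2084, 3914 and 4279). The single library behind the low end of AMB mKO was replicate 2, and the other 6 ranged from 3682 to 5604 CPM, with a mean of 5051 ± 750. The sums of both control groups overlapped, since HU Ctrl replicate 1 lay at 5060 CPM and AMB Ctrl replicate 8 at 4030. HU mKO replicate 3 was the lowest unloaded library at 2084 CPM, and it also held 199 CPM of Adipoq. These sums add transcripts of different length and serve only to set libraries side by side.

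**Figure D1:**
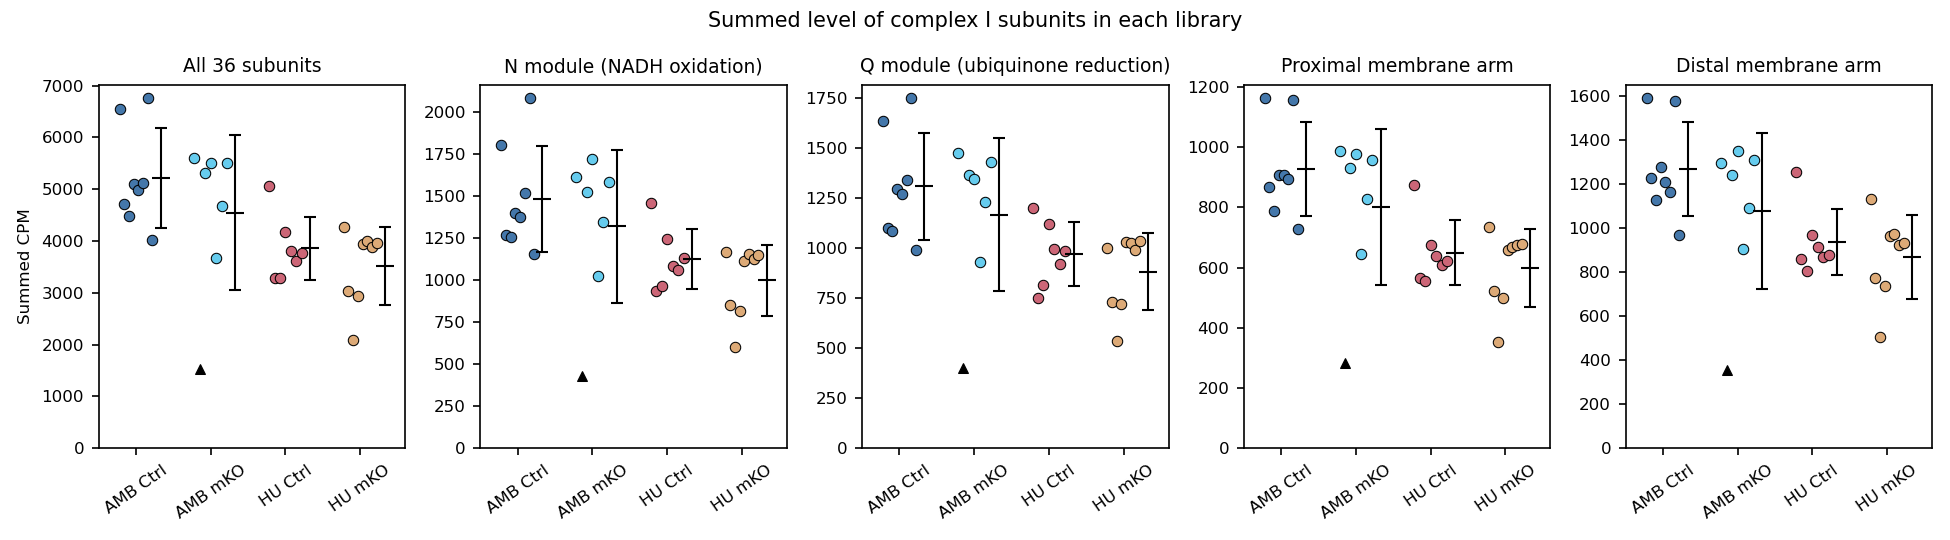
Summed CPM (vertical axis) of all 36 complex I subunits and of the 4 structural modules in each of 30 libraries, by group. Circles are libraries, the black triangle is AMB mKO replicate 2, and the horizontal mark with bars is the mean ± SD of all libraries of the group. The triangle lies at 1531 CPM in the first panel, while the other AMB mKO libraries lie between 3682 and 5604.

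Per length, the subunits covered a wide range of levels. Ndufa4, which is now assigned to complex IV although it keeps a complex I name, was highest in AMB Ctrl at 376 ± 85.2 CPM per kilobase of exon. It was followed by Ndufb9, a distal subunit, at 372 ± 78.5, which did not differ from it beyond the spread between mice. The lowest were Ndufb2 at 18.6, Ndufv3 at 36.5 and Ndufs5 at 39.9 CPM per kilobase. The annotation used gives Ndufb2 an exon length of 4375 bases, most of any member, which enters that value directly. Without length correction, Ndufa1, a small membrane subunit, had the lowest mean over all libraries at 24.2 CPM. Ndufs5 varied least between AMB Ctrl mice, with a coefficient of variation of 9.9%, and Ndufa2 most, at 43.3%. The median coefficient over the 36 subunits was 18.9% in AMB Ctrl, 19.3% in HU Ctrl, 23.8% in HU mKO, and 36.3% in AMB mKO, which became 19.5% without replicate 2.

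In controls, unloading was associated with lower values of all 36 subunits, and 7 of them fell past the threshold of an adjusted p under 0.05 (edgeR quasi-likelihood test, Benjamini-Hochberg over 16932 genes). Over all genes tested, 5.74% were called lower in this comparison. The members' median log2 difference was -0.46, with a range from -0.86 to -0.17, against 0.03 over all genes. Without AMB mKO replicate 2, which belongs to neither group compared here, 14 subunits fell, the median was -0.43, and 7.86% of 17055 genes were called lower. All 4 groups share a dispersion estimate for each gene, so that library enters this test too. The higher count came without a larger median difference. With DESeq2 the count was 11, beside 7.58% of all genes, and leaving out AMB mKO replicate 1 it was also 11, beside 6.58%. All 7 were among the 11 of DESeq2. The largest change was that of Ndufs8, a core subunit of the Q module that carries iron-sulphur clusters.

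Ndufs8 lay at 81.4 CPM in its lowest AMB Ctrl library, 103 in the median one and 134 in the highest, and at 52.1, 56.1 and 78.7 CPM in HU Ctrl. It was the only member for which every HU Ctrl library lay below every AMB Ctrl library, an arrangement found in 2.12% of all genes tested. The log2 difference was -0.86 ± 0.18 (SE), or 1.81-fold lower, with an adjusted p of 0.00319. Its neighbour in the Q module, Ndufa9, an accessory subunit that holds a bound nucleotide near the ubiquinone site, lay at 179, 213 and 302 CPM in AMB Ctrl and at 124, 141 and 194 CPM in HU Ctrl. It fell by 0.60 ± 0.18 on the log2 scale (adjusted p = 0.0322), and only HU Ctrl replicate 1 reached into the AMB Ctrl range. The other Q module subunits were not called. Among them, the core subunits Ndufs7 and Ndufs3 had log2 differences of -0.53 ± 0.23 and -0.29 ± 0.19, and Ndufa6, Ndufa7 and Ndufa5 had -0.26, -0.22 and -0.17. Ndufa5, a small accessory subunit of the peripheral arm, was the member that moved least, at 66.9 ± 12.7 CPM in AMB Ctrl and 61.7 ± 10.7 CPM in HU Ctrl.

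No subunit of the N module was called in controls, although all 8 were lower, with a median of -0.34. The core subunit Ndufs1, the largest in the module and the holder of several iron-sulphur clusters, lay at 322, 394 and 611 CPM in AMB Ctrl and at 238, 262 and 374 CPM in HU Ctrl. Its log2 difference was -0.58 ± 0.22 (adjusted p = 0.087), and the groups overlapped. Ndufv1, which binds the flavin that accepts electrons from NADH, had -0.49 ± 0.24, and its partner Ndufv2 had -0.34 ± 0.22. Without AMB mKO replicate 2, Ndufs1 fell with an adjusted p of 0.0159 and was the only one of the 8 to be called.

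The membrane arm held 5 of the 7 called subunits. In the proximal part 2 of 9 fell, with a module median of -0.54. Ndufc2, a small subunit in the membrane, lay at 55.2, 69.1 and 92.7 CPM in AMB Ctrl and at 41.5, 42.7 and 69.8 CPM in HU Ctrl. It fell by 0.59 ± 0.15 on the log2 scale (adjusted p = 0.0115), with 5 of 7 HU Ctrl libraries between 41.5 and 43.7 CPM and replicates 1 and 2 inside the AMB Ctrl range. Ndufa11, an accessory membrane subunit, lay at 102, 120 and 166 CPM in AMB Ctrl and at 68.8, 73.4 and 112 CPM in HU Ctrl. It fell by 0.75 ± 0.19 (adjusted p = 0.0125), and HU Ctrl replicate 1 was the only unloaded control inside the ambulatory range. Ndufa10, a nucleoside kinase-like subunit of the matrix side, was not called at -0.61 ± 0.21 (adjusted p = 0.051).

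In the distal part 3 of 10 fell, with a module median of -0.49. Ndufb10 lay at 55.5, 75.8 and 135 CPM in AMB Ctrl and at 32.2, 48.6 and 56.8 CPM in HU Ctrl, and fell by 0.83 ± 0.23 on the log2 scale (adjusted p = 0.0179). Ndufb7 lay at 65.4, 82.8 and 155 CPM and at 48.6, 51.8 and 73.3 CPM, and fell by 0.76 ± 0.22 (adjusted p = 0.0233). Ndufb3 lay at 54.6, 63.9 and 99.4 CPM and at 34.2, 45.2 and 64.8 CPM, and fell by 0.66 ± 0.19 (adjusted p = 0.0214). All of these are accessory subunits of the distal membrane arm, and in each of them 1 HU Ctrl library reached above the lowest AMB Ctrl library. At the other end of the module, Ndufb4 had a log2 difference of -0.20 ± 0.24. Ndufa4 was not called at -0.43 ± 0.21, with 189, 222 and 354 CPM in AMB Ctrl and 151, 171 and 270 CPM in HU Ctrl.

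**Figure D2:**
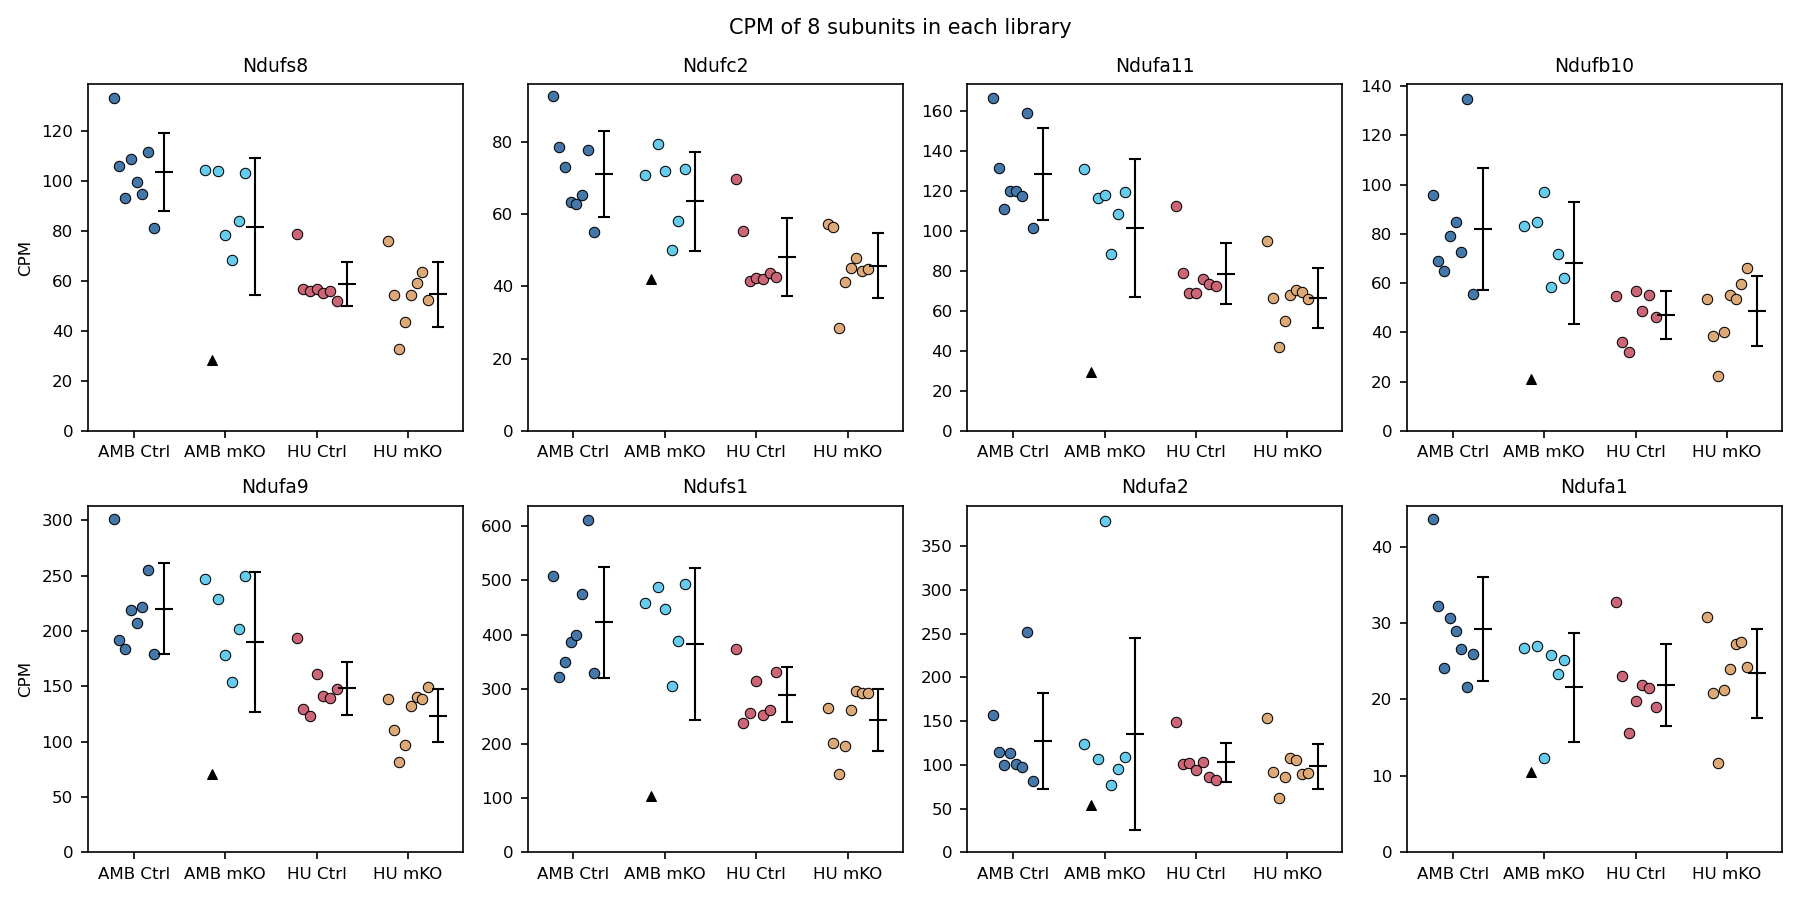
CPM (vertical axis, from 0) of 8 subunits in each library by group. Circles are libraries, the black triangle is AMB mKO replicate 2, and the horizontal mark with bars is the mean ± SD. In the Ndufs8 panel 6 of 7 HU Ctrl libraries lie between 52.1 and 57.0 CPM, and every HU Ctrl library lies below the lowest AMB Ctrl library at 81.4 CPM, whereas the Ndufa2 panel shows AMB mKO replicate 4 at 378 CPM.

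Since the 36 subunits lay lower together, the sequence around their transcription starts was set beside the differences. RefSeq windows of 300 bases (GRCm38.p6, 250 before the start and 50 after it) matched 32 of the 36 members by symbol. The windows of the 3 members with the smallest p for unloading in controls are printed first, and that of Ndufb4, which had the largest p among members with 1 listed start, follows for contrast. Ndufs8 lies at chr19:3912725-3913024 on the minus strand, Ndufc2 at chr7:97399753-97400052 on the plus strand, Ndufa11 at chr17:56717512-56717811 on the plus strand and Ndufb4 at chr16:37654319-37654618 on the minus strand. Each is written 5′ to 3′ on the gene's strand, in lower case, with capitals marking matches on either strand to 5 motifs searched: GCGCANGCG for NRF1, CCGGAAG for ETS factors such as GABP, AAGATGGC for YY1, AAGGTCA for the core of an ERR site, and GGGCGG for the GC box.
Ndufs8: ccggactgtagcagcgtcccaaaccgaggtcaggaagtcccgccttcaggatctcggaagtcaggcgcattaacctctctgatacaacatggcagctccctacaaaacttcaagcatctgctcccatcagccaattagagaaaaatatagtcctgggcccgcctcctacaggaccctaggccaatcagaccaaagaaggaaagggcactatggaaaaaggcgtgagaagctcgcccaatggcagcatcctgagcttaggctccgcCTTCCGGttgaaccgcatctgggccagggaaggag
Ndufc2: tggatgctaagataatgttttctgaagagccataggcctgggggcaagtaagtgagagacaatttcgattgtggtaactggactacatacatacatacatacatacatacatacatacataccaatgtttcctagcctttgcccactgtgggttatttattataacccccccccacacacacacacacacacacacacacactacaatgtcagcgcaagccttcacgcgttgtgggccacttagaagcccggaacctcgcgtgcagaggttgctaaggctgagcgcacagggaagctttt
Ndufa11: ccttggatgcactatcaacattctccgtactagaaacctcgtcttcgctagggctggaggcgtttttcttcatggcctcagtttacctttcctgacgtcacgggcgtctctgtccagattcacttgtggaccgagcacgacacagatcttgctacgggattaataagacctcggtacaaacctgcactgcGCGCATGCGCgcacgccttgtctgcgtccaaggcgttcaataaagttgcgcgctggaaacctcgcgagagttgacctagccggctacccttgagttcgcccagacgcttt
Ndufb4: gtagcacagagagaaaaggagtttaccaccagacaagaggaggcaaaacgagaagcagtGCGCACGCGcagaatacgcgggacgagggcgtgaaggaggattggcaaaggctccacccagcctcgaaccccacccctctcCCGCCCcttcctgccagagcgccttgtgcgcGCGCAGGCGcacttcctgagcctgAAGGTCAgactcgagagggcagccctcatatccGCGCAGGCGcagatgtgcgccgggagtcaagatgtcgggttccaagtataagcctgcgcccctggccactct

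Ndufs8 held 1 ETS match that starts 16 bases after the transcription start. Ndufa11 held an NRF1 match 60 bases before the start, which reads on both strands as 2 overlapping matches, at -60 and -59. Ndufb4, among the least changed members, held 3 NRF1 matches at -191, -79 and -22, an ERR core at -55 and a GC box at -110. Ndufc2 held none of the 5 strings. Over the 32 windows, NRF1 strings were found in 8 members against 7.03% of 27025 genes with a window of the same length, and YY1 strings in 7 (21.9%) against 3.19%. ETS strings were found in 4 members (12.5% against 9.93%), ERR cores in 3 (9.38% against 5.38%) and GC boxes in 14 (43.8% against 38.2%). None of the 5 strings contains another. Members with an NRF1 string included the called Ndufa11 and Ndufb10 as well as Ndufb4, Ndufa5 and Ndufa6, which were not called. A match describes these letters only, and a window without one says nothing about the factor.

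In the knockouts, 28 of 36 subunits were lower after unloading and 8 were higher, with a median log2 difference of -0.22 and none called (edgeR quasi-likelihood test, Benjamini-Hochberg). At an unadjusted p under 0.05 there were 7, and DESeq2 called 2, Ndufa9 and Ndufc2, beside 6.58% of all genes, while limma voom with library weights called 7, beside 6.92%. Over all genes 4.75% were called lower. Without AMB mKO replicate 2, 31 subunits were lower and 10 of them fell, the median was -0.38, and 6.82% of all genes were called lower. With that library kept, the knockout count also moved with other choices. It was 4 with sex left out of the fit, beside 5.62% of all genes, and 1 with the title letter as a term, beside 7.09%. The 10 were Ndufs1, Ndufs7, Ndufs8, Ndufa8, Ndufa9, Ndufa10, Ndufa11, Ndufb5, Ndufb7 and Ndufc2, and each of them was also among the 14 called in controls under the same fit. That count of 10 became 4 when AMB mKO replicate 1 was left out as well, 5 with HU mKO replicate 4, and 16 with AMB mKO replicate 5. The share of all genes called was not computed for these refits, so a change particular to the subunits cannot be read from them. By module, 1 of 8 fell in the N module, 3 of 8 in the Q module, 4 of 9 in the proximal arm and 2 of 10 in the distal arm, and 3 of the 7 core subunits were among them.

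Ndufa9 showed the pattern most clearly. It lay at 71.3 CPM in AMB mKO replicate 2 and between 154 and 249.5 CPM in the other 6 AMB mKO libraries, while HU mKO libraries lay at 81.9, 135 and 149 CPM (lowest, median and highest). Without replicate 2 the groups did not overlap, and the log2 difference moved from -0.54 ± 0.19 (adjusted p = 0.0637) to -0.71 ± 0.15 (adjusted p = 0.00177). Ndufs1 was the other member without overlap once that library was left out, with 306 to 493.1 CPM in AMB mKO and 145 to 296 CPM in HU mKO. Its log2 difference moved from -0.54 ± 0.23 to -0.75 ± 0.17 (adjusted p = 0.00403). With all libraries, no member had every HU mKO library below every AMB mKO library, against 0.372% of all genes, and without replicate 2 the share of all genes was 2.07%.

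Ndufs8 lay at 28.5 CPM in AMB mKO replicate 2, between 68.6 and 104 CPM in the other AMB mKO libraries, and at 32.7, 54.5 and 76.3 CPM in HU mKO. Its log2 difference was -0.49 ± 0.19 (adjusted p = 0.0867) with all libraries and -0.67 ± 0.14 (adjusted p = 0.00239) without replicate 2. Ndufa11 had -0.51 ± 0.20 and -0.70 ± 0.14 (adjusted p = 0.00148 without that library), and Ndufc2 had -0.42 ± 0.15 and -0.50 ± 0.15 (adjusted p = 0.0245). At the opposite end, Ndufa6, a small Q module subunit of the LYR family, was higher in HU mKO by 0.23 ± 0.21, and by 0.09 ± 0.20 without replicate 2, neither called. The distal Ndufb10 and Ndufb3, which fell in controls, were not called in the knockouts under either fit, with -0.55 ± 0.20 (adjusted p = 0.0615) and -0.42 ± 0.17 (adjusted p = 0.0887) without replicate 2.

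**Figure D3:**
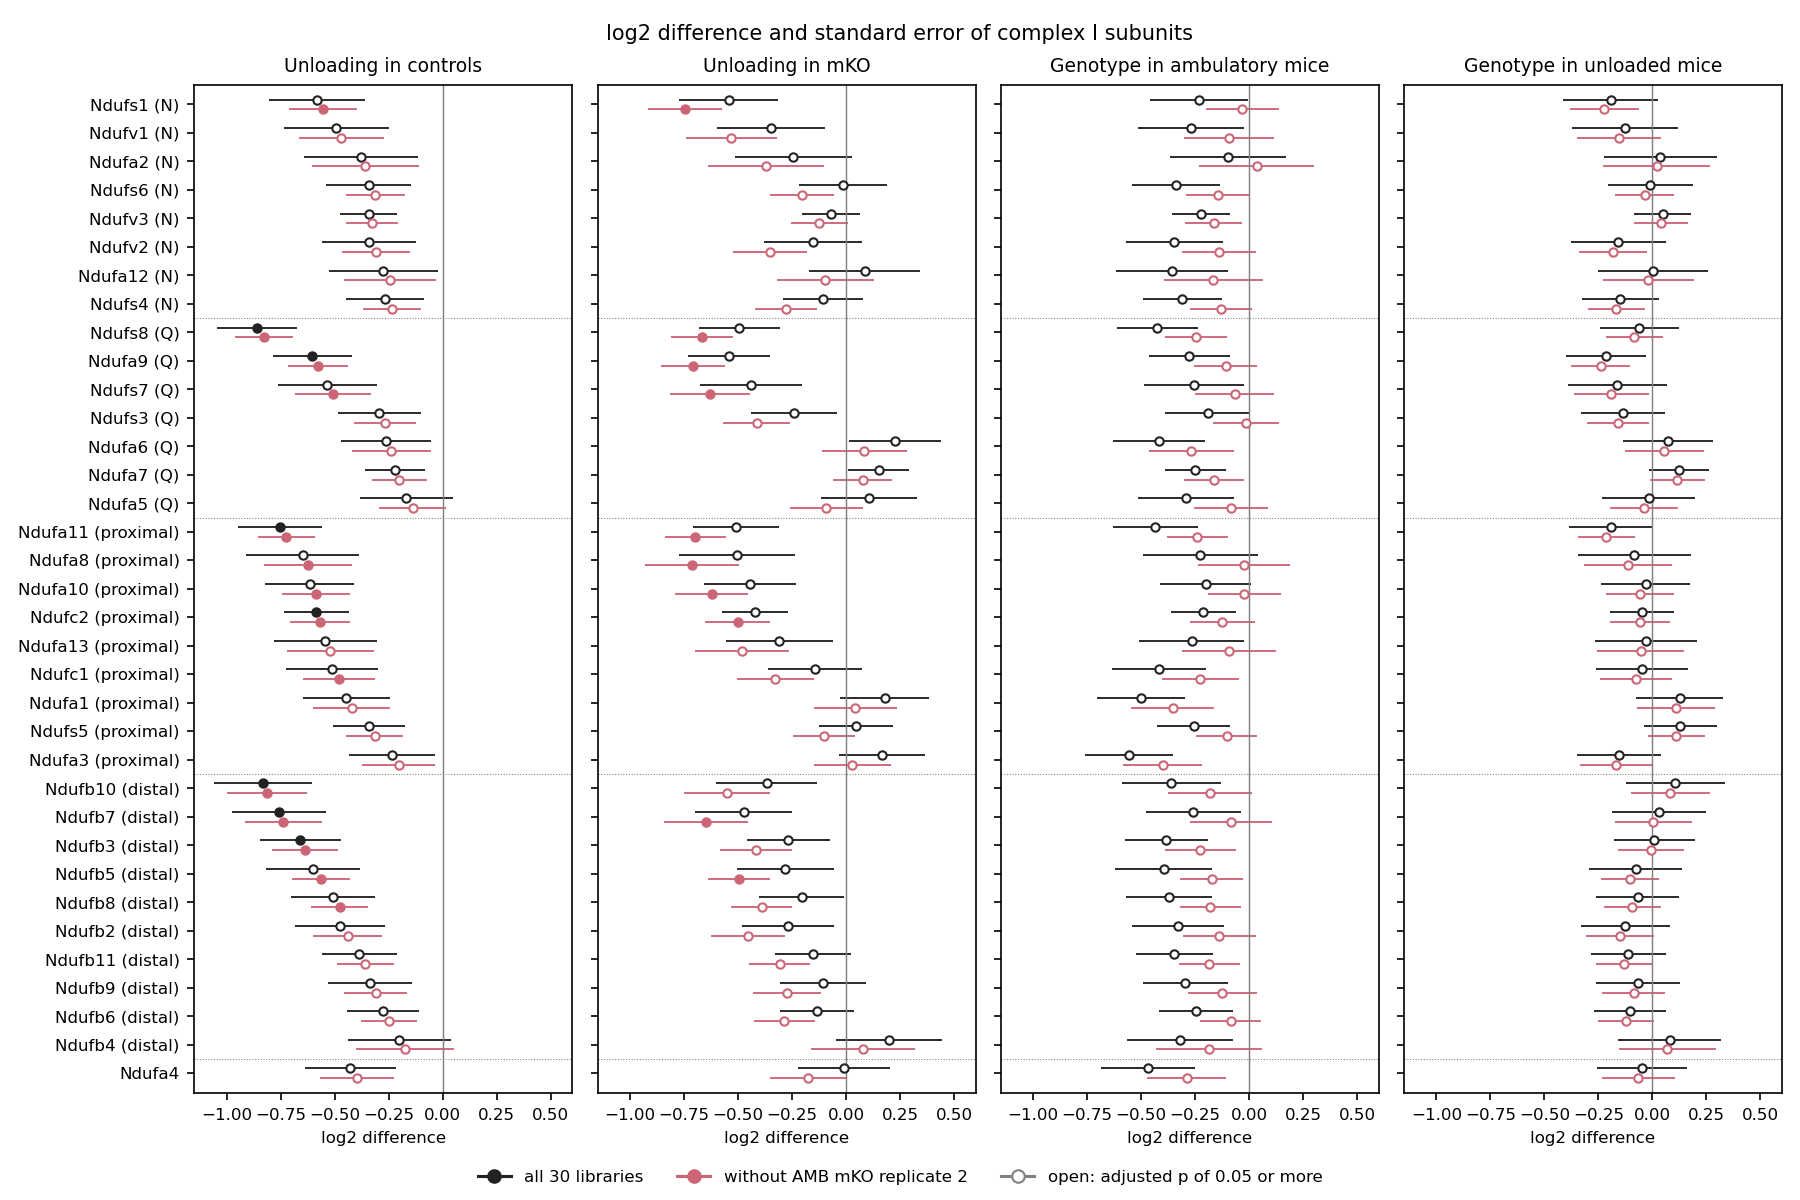
log2 difference (horizontal axis) of 35 of the 36 subunits in 4 comparisons, ordered by module and by the difference in controls, with bars of 1 standard error. Black is the fit with all 30 libraries and red the fit without AMB mKO replicate 2, and filled points have an adjusted p under 0.05. With all libraries 7 points are filled for unloading in controls and none for unloading in mKO, whereas without that library 14 and 10 are filled, and no point is filled in either genotype panel.

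Whether the response to unloading differed by genotype was tested directly as an interaction, and 0 of 36 subunits were called (edgeR quasi-likelihood test; 1 had an unadjusted p under 0.05, and DESeq2 and limma voom each called 0), beside 0.0% of all genes. With all libraries every member had a positive interaction, meaning a smaller drop in the knockouts, with a median of 0.26. Without AMB mKO replicate 2 the median was 0.06, with 23 members positive and 13 negative, and 0 were called. The largest was that of Ndufa1, at 0.63 ± 0.29 with all libraries and 0.47 ± 0.27 without replicate 2. The smallest was that of Ndufs1, at 0.04 ± 0.32, which changed sign to -0.19 ± 0.23 without that library. The standard errors of single subunits ranged from that of Ndufv3, 0.19, to that of Ndufa2, 0.38, so a difference in response of that size could not be told from 0 for a single subunit.

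Between genotypes, no subunit was called in either condition. In ambulatory mice all 36 were lower in AMB mKO than in AMB Ctrl, with a median of -0.30 and 0 called (5 at an unadjusted p under 0.05, DESeq2 0), beside 0.0177% of all genes called in either direction. Without replicate 2 the median was -0.14, 35 were lower, 1 had an unadjusted p under 0.05 and 0 were called, beside 0.0176%. Ndufa3, a small proximal subunit, had the largest difference at -0.56 ± 0.20 (adjusted p = 0.565), with 68.1, 84.7 and 125 CPM in AMB Ctrl and 26.7, 69.7 and 86.7 CPM in AMB mKO. Without replicate 2 it was -0.40 ± 0.18. Ndufs8 had -0.43 ± 0.19, and -0.25 ± 0.14 without that library, while Ndufa2 moved from -0.10 ± 0.27 to 0.03 ± 0.27 and changed sign.

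In unloaded mice 25 subunits were lower and 11 higher in HU mKO than in HU Ctrl, with a median of -0.05, and 0 were called (0 at an unadjusted p under 0.05, DESeq2 0), beside 0.0177% of all genes. Without AMB mKO replicate 2 the median was -0.08, again with 0 called, beside 0.0176%. The most negative was Ndufa9 at -0.21 ± 0.18, with 148 ± 23.6 CPM in HU Ctrl and 124 ± 24.1 CPM in HU mKO, and the most positive was Ndufs5 at 0.13 ± 0.17. Leaving out the 3 libraries highest in Adipoq (AMB mKO replicate 2 and HU mKO replicates 2 and 3), a choice made after seeing the data, the median was 0.03.

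The libraries differed more in some subunits than in others. AMB mKO replicate 2 was the lowest of 30 libraries for 32 of 36 members. Over all 36 members it lay a median of 3.22-fold below the mean of the rest of its group, from 1.46-fold for Ndufv3 to 5.33-fold for Ndufb5. AMB Ctrl replicate 1 was the highest for 19 members and lay at or above its group mean for all 36. AMB Ctrl replicate 7 was the highest for another 12, but held Ndufb4 at -1.04 on the log2 scale relative to the AMB Ctrl mean and Ndufa2 at 0.99. AMB mKO replicate 4 had the widest spread among members, with an SD of 0.77 log2 units against 0.08 in AMB Ctrl replicate 4. It was the highest of all libraries for Ndufa2, Ndufa5, Ndufa13 and Ndufb7, and the lowest for Ndufa12 and Ndufb4, from -1.93 for Ndufa12 to 1.57 for Ndufa2. In that library Ndufa2 stood at 378 CPM against 54.3 to 124 CPM in the other AMB mKO libraries, although its member sum, at 5507 CPM, was inside the range of the rest. Leaving it out gave 9 called members for unloading in controls, beside 7.28% of all genes called lower, and 0 in the knockouts, beside 3.58%. Genes of the mitochondrial genome held 1.01% of counts in AMB mKO replicate 4, 1.749% in AMB mKO replicate 2 and 2.198% in AMB Ctrl replicate 7. In the remaining libraries they held 3.387% to 8.369%. What lies behind these differences between libraries was not tested.

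**Figure D4:**
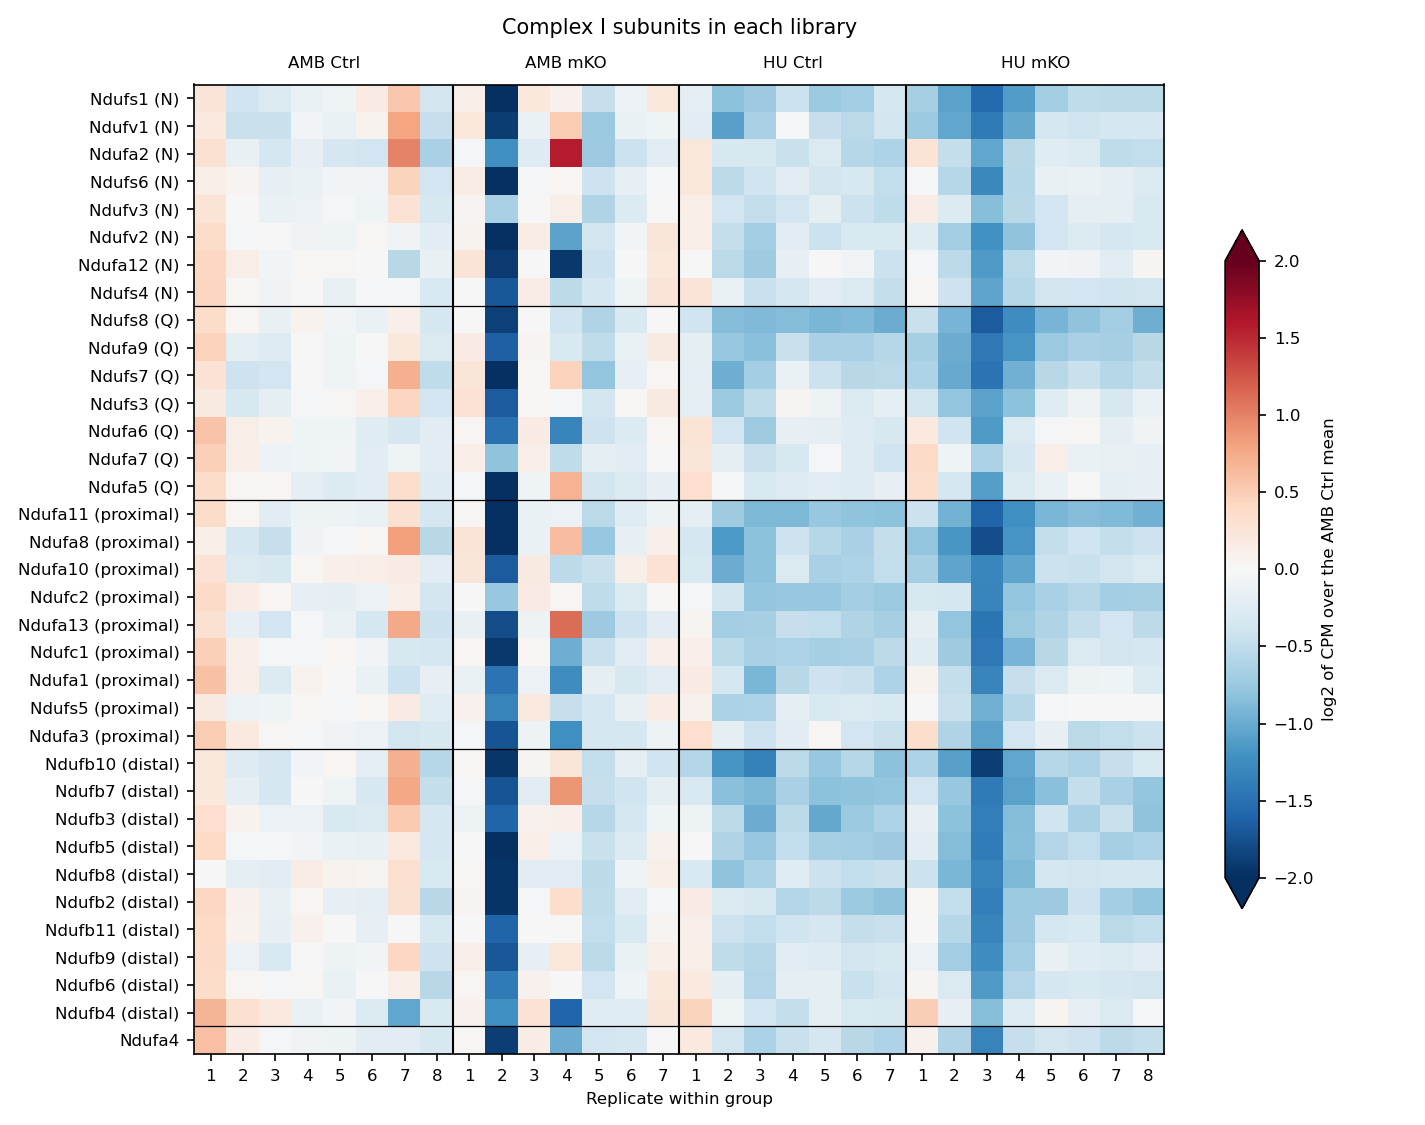
log2 of CPM over the AMB Ctrl mean for 35 of the 36 subunits (rows, by module) in 30 libraries (columns, by group and replicate), with red above and blue below that mean and the scale cut at -2 and 2. AMB mKO replicate 2 is blue in every row, HU mKO replicate 3 is the darkest column among the unloaded mice, with a median of -1.32, and AMB mKO replicate 4 mixes both colours, from -1.93 to 1.57.

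The difference in controls was present in each division of the mice that the labels allow. Titles end in a letter a, b or c whose meaning is not given, and within letters the median difference in controls was -0.29, -0.46 and -0.45, with 36, 34 and 36 members lower. It was -0.39 in females and -0.50 in males, with 36 lower in each. In the knockouts the within-letter medians were -0.31, -0.37 and 0.16, where the last became -0.68 without replicate 2 and then rested on 1 AMB mKO library. They were 0.20 in females and -0.29 in males, and the female value became -0.67 without replicate 2, again resting on 1 ambulatory library. The genotype difference in ambulatory mice had medians of -0.20, 0.05 and -0.88 within letters, the last -0.05 without replicate 2, and -0.68 in females and -0.33 in males, with the female value 0.17 without replicate 2. It therefore did not hold in every division. In unloaded mice it was -0.18, 0.12 and -0.33 within letters, and -0.09 in each sex.

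Genes that build or regulate complex I were read from the same fit. Of the 7 complex I subunits encoded by the mitochondrial genome, 1 fell in unloaded controls, mt-Nd6, at -1.07 ± 0.33 (adjusted p = 0.0319, or 0.0167 without AMB mKO replicate 2), and the median was -0.25. In the knockouts 0 of 7 were called and the median was 0.19, or -0.005 without replicate 2. That gene lies on the opposite strand of the mitochondrial genome from the other 6, and its reads could not be separated from those of its antisense partners if strand was not used in counting. Their summed level varied widely between mice of a group, from 9130 to 31960 CPM in AMB Ctrl and from 8523 to 24550 CPM in HU Ctrl. Ndufab1, the acyl carrier protein that is also a complex I subunit, fell in controls by 0.67 ± 0.17 (adjusted p = 0.00901, or 0.000986 without replicate 2). Of 17 assembly factors tested, 4 fell in controls and 2 in the knockouts, or 5 and 3 without replicate 2, and none rose in either fit. The shares of all genes called lower were 5.74% and 4.75%, or 7.86% and 6.82% without replicate 2. Ndufaf3, which helps to build the Q module, fell in controls by 0.69 ± 0.11 (adjusted p = 0.000205) and in the knockouts by 0.37 ± 0.11 (adjusted p = 0.0315, or 0.0524 without replicate 2). Timmdc1, an assembly factor of the membrane arm, fell by 0.84 ± 0.18 (adjusted p = 0.00334) and by 0.69 ± 0.19 (adjusted p = 0.0196). The other assembly factors that fell in controls were Dmac1 and Dmac2.

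Among 13 regulators of mitochondrial biogenesis, 4 fell in unloaded controls, or 5 without AMB mKO replicate 2. The 4 were the coactivator Ppargc1a, at -1.62 ± 0.46 (adjusted p = 0.0232), the nuclear receptors Esrrg, at -1.30 ± 0.40, and Esrra, at -0.83 ± 0.26, and the fatty acid receptor Ppara, at -1.28 ± 0.30. Esrra and Esrrg encode ERR factors, whose core string was searched in the windows. The genes for the NRF1, GABP alpha and YY1 factors were not called: Nrf1 had 0.19 ± 0.09, Gabpa 0.09 ± 0.10 and Yy1 0.02 ± 0.10. In the knockouts none of the 13 fell and 1 rose (5.3% of all genes were called higher), Ppard, at 0.48 ± 0.16 (adjusted p = 0.0479, or 0.0753 without AMB mKO replicate 2), whereas 5 fell without that library. Of 13 genes of iron-sulphur cluster assembly tested, 3 fell in controls and 3 in the knockouts, or 6 and 4 without that library. Beside both lists, 5.74% of all genes were called lower in controls and 4.75% in the knockouts. Without that library these shares were 7.86% and 6.82%.

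The other respiratory complexes lay lower beside complex I. In unloaded controls 3 of 4 complex II genes fell (median -0.67), as did 5 of 9 nuclear genes of complex III (-0.71), 3 of 13 of complex IV (-0.59) and 4 of 14 of complex V (-0.56), beside 7 of 36 for complex I (-0.46). Without AMB mKO replicate 2 the counts were 3, 7, 9 and 7, beside 14 for complex I. Of all genes tested, 5.74% were called lower in this comparison with all libraries and 7.86% without replicate 2. The share of the 36 members in their sum with the nuclear genes of complexes II to V was also computed. Ndufa4 counted as a member, and subunits encoded by the mitochondrial genome and Ndufab1 were left out. That share was 27.3 ± 1.156% in AMB Ctrl, 28.4 ± 1.47% in HU Ctrl, 27.6 ± 1.07% in AMB mKO and 28.7 ± 1.06% in HU mKO. The ranges of all groups overlapped. In AMB mKO replicate 2 that share was 29.4%, although the sum was the lowest of all.

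Fibre and other cell markers moved beside these differences. All 11 slow fibre genes were lower in unloaded controls, with a median of -0.73 and none called, or 6 called without AMB mKO replicate 2. Among all genes, 5.74% were called lower with that library and 7.86% without it. Of 12 fast fibre genes 3 rose and 1 fell, with and without that library, where 5.37% of all genes were called higher with it and 7.89% without it. The summed slow fibre level was 18850 to 45150 CPM in AMB Ctrl and 12090 to 31480 CPM in HU Ctrl, and the fast fibre level was 18200 to 48940 and 17790 to 78040 CPM. Adipocyte markers, all 8 of them lower and none called in unloaded controls, summed to 1149 to 2258 CPM in AMB Ctrl and 895 to 1468 CPM in HU Ctrl, and to 932 to 11540 CPM in AMB mKO and 809 to 3590 CPM in HU mKO. The part of fibre type or of other cells in the complex I differences was not tested. Leaving out the 3 libraries highest in Adipoq, 19 subunits were called lower in controls, beside 9.37% of all genes, and 8 in the knockouts, beside 7.07%.

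Some members share reads with other genes, depending on how the authors counted. In the GENCODE M21 annotation, 15 members overlap exons of another gene, 13 of them on the opposite strand, such as Ndufb5 with Mrpl47 over 616 bases and Ndufs1 with Ino80dos over 489 bases. The labels name a kit that marks strand, but no source at hand records whether counting used it, so values of these 13 are uncertain to that degree. Strand cannot separate reads in the same-strand overlaps of Ndufb2 with Gm42420 (145 bases), Ndufb8 with Gm20538 (134 bases) and Ndufb9 with Gm49356 (201 bases). In all, 7 members, some of them among those 15, have a near-identical processed copy elsewhere (Ndufa12, Ndufb3, Ndufb4, Ndufb11, Ndufs3, Ndufs5 and Ndufs6), whose own mean count was between 1.0 and 16.2 against 481.7 to 2053.8 for the members.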

How the data were processed

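Bulk RNA sequencing of soleus muscle was measured in 30 mouse libraries. The authors deposited whole-number read counts per gene in a single table. The submitters' processing notes name the GRCm39 build and, without giving their roles, featureCounts 1.6.3, STAR 2.7.9a, DESeq2 1.34.0 and cutadapt 1.16. The annotation release and the strand setting are not named there or in the labels. Groups came from the sample labels and titles, and all 30 columns were matched by name. Titles give mouse tags, and p-values measure the spread between these libraries.

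The counts were fitted in R 4.3.3 with edgeR 4.0.16 (TMM factors, filterByExpr, quasi-likelihood test) on 4 groups with sex as a term, over 16932 genes, or 17055 without AMB mKO replicate 2. P-values were adjusted with Benjamini-Hochberg over all genes, and called means an adjusted p under 0.05. The differences within letters and within sexes used log2 CPM with a pseudocount of 0.5. The log2 values of single libraries relative to the AMB Ctrl mean used none. The code was tested on simulated data. Total counts of 12083415 to 20895263 per library set the precision, and no member had fewer than 156 counts in a library. The members, lists and tests were chosen with earlier results of these data known. Subunits named are the core subunits, Ndufa4, the 8 with the smallest p for unloading in controls, the 3 with the smallest p and both extremes in each other comparison, and up to 3 genes of each list; others named to complete a count or an order were chosen after their values were seen. Alternatives were DESeq2 1.42.0, limma 3.58.1 voom with library weights, other size factors and count filters, the sex term left out, the title letter as a term, compared groups only, and each library left out. Some items that the naming rule covers are not reported here. Promoter windows came from RefSeq (GRCm38.p6). Atp5o, listed on 2 rows, was left out. The smallest chi-square per gene between libraries of a group was 16.4, so no library duplicated another of its own group. Libraries of different groups were not compared in this way.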

Additional observations from a re-analysis of the deposited data

Results flagged for a closer look

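Single libraries stood far from the rest of their group for several subunits, by Dixon's criterion. It marked 15 of 92 group and subunit combinations checked, at a level meant to mark about 1 in 20 for a single combination. The combinations share the same libraries and are not independent, so the count was not compared with chance. HU Ctrl replicate 1 was high for Ndufa2 at 149.6 CPM, Ndufa4 at 269.6, Ndufa5 at 84.67, Ndufa11 at 112.3, Ndufb7 at 73.34 and Ndufs8 at 78.7. AMB Ctrl replicate 1 was high for Ndufa4 at 354.4 CPM, Ndufa6 at 130.9, Ndufa7 at 101.6 and Ndufv2 at 311.1. AMB Ctrl replicate 7 was high for Ndufa2 at 252.2 CPM, Ndufb7 at 155.0 and Ndufv1 at 676.7. AMB mKO replicate 4 was high for Ndufa2 at 378.3 CPM, and AMB mKO replicate 2 was low for Ndufa11 at 29.45 CPM.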

How the results depend on the processing

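The count of subunits called lower after unloading in controls, 7, became 11 with DESeq2, 18 with limma voom, 14 with the title letter as a term and 22 with the compared groups only (beside 7.58%, 12.5%, 7.85% and 9.78% of all genes called lower). It became 5 to 14 when 1 library was left out, lowest without HU Ctrl replicate 5 (4.18% of all genes) and highest without AMB mKO replicate 2 (7.86%). The count in the knockouts, 0, became 2 with DESeq2, 7 with limma voom, 4 with sex left out and 1 with the title letter (beside 6.58%, 6.92%, 5.62% and 7.09%). It became 0 to 10 when 1 library was left out, highest without AMB mKO replicate 2 (6.82%). After seeing the data, further alternatives were added. Without the 3 libraries highest in Adipoq the counts were 19 and 8 (9.37% and 7.07% of all genes), and with the title letter and AMB mKO replicate 2 left out they were 20 and 11 (9.82% and 7.31%). With that library out, leaving out another gave 4 to 16 in the knockouts and 11 to 17 in controls, where the share of all genes called was not computed. Among the subunits and comparisons for which every alternative was run, 3 changed sign, none of them called. Leaving out AMB mKO replicate 2 alone also turned the interaction negative for 13 subunits and the difference in unloaded knockouts for Ndufa5, Ndufa12 and Ndufs5. Ndufa4 in unloaded knockouts was 0.035 with the title letter and 0.034 with the compared groups only. Ndufa2 between ambulatory genotypes was 0.083 with sex left out, 0.034 without the 3 libraries, 0.038 with the letter and replicate 2 left out, and 0.034 without replicate 2. The interaction of Ndufs1 was -0.194 with limma voom, -0.111 with sex left out, -0.087 without the 3 libraries, -0.074 with the letter and replicate 2 left out, and -0.191 without replicate 2. Without a count filter Ndufa9 in controls had an adjusted p of 0.0551. The causes were not tested. No paired analysis was possible because titles carry mouse tags and no replicate number shared between groups.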
